A study of Mus musculus with 9 samples.

Results

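The genes described here are 10 components of the centrosome and of the pathway that copies its centrioles: Plk4, Stil, Sass6, Cep152, Cep192, Cep135, Cep63, Pcnt, Cntrob and Cdk5rap2. They were taken by gene name from a table of 15184 genes, and all 10 were in it. The table came from polyA-selected RNA-Seq of mouse embryonic fibroblasts (MEFs), primary connective tissue cells grown from embryos, in 9 libraries. The libraries, 3 to a group, were labelled Empty, SAM1 and SAM2. All the cells were wild-type MEFs that had been given the lentiMPHv2 and lentiSAMv2 vectors and selected with blasticidin and hygromycin, so the controls carried the activation machinery too. In this system, called SAM, a catalytically dead Cas9 and a modified single-guide RNA (sgRNA) bring transcription activators to a gene's promoter. The genotype label of the Empty libraries is an empty vector, which the study's methods describe as carrying a non-targeting sgRNA. The SAM1 and SAM2 libraries both have the genotype label Hnrnpk_SAM, for activation of Hnrnpk, the gene of an RNA-binding protein. The labels do not say which sgRNA each line carries, and their extraction protocol names only empty vector and sgRNA2 cells. In the study's supplement the non-targeting sgRNA and the second Hnrnpk sgRNA are listed with the same sequence, so what the control carries is not settled by these sources. In addition, the methods describe selected pools and no cloning. Nothing in the labels says that the 3 libraries of a line came from separate cultures, so the p-values below measure the spread between these libraries, which may be technical. The comparisons ask how centriole and centrosome genes stood in the SAM lines against the Empty line, and whether the SAM lines differed from each other.

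A centrosome holds a pair of centrioles, barrels of microtubules, in a cloud of pericentriolar material (PCM) that anchors microtubules. Each centriole is copied once per cell cycle. CEP192 and CEP152 bring the kinase PLK4 to the mother centriole, PLK4 phosphorylates STIL, and STIL with SAS-6 (from Sass6) builds the cartwheel that gives the new centriole its shape. Too little PLK4 stops copying and too much gives extra centrioles, and many of these genes are transcribed mainly in dividing cells.

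In short, 9 of the 10 genes were higher in the Hnrnpk_SAM libraries. Cep63 had a pooled log2 fold change of -0.14 that missed the threshold, and was called lower in SAM2 alone. Plk4 rose most, 2.75-fold, and Sass6, Stil, Cep152 and Cntrob rose between 1.87-fold and 2.09-fold. Cep192, Pcnt and Cdk5rap2 rose between 1.46-fold and 1.76-fold, and Cep135 by 1.23-fold. Values are normalized read counts, that is reads per gene divided by a library's size factor. Fold changes come from limma on log2(normalized count + 1), with Benjamini-Hochberg adjustment over all 15184 genes and a threshold of 0.05. All tests were two-sided. In the pooled comparison of 6 Hnrnpk_SAM with 3 Empty libraries, 9 members were called higher and 0 lower, against a background of 26.8% higher and 27% lower over all genes. The median log2 fold change was 0.86 over the members and 0.0087 over all genes. In every one of the 9 members called, all 6 Hnrnpk_SAM libraries lay above all 3 Empty libraries, a separation that 25.9% of all genes showed.

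The series-wide values that touch these results are as follows. Between 41759636 and 49026626 reads fell on the listed genes in the 8 libraries whose reads could be recovered from the values. Hnrnpk itself had 25058, 26098 and 26164 normalized counts in Empty, 24102, 24045 and 23619 in SAM1, and 26608, 26859 and 26221 in SAM2. Its pooled log2 fold change was -0.032 (SE 0.0538, limma adjusted p = 0.642). Against Empty, Hnrnpk was lower in SAM1 at -0.11 (adjusted p = 0.00252), opposite to the label, and stood at 0.044 in SAM2 (adjusted p = 0.159), and the lines differed by 0.15 (adjusted p = 0.000288). Its mRNA in these libraries thus goes against the label in SAM1 and does not check it in SAM2, and the lines are named here by their labels. By other measures, qRT-PCR for the transcript and Western blot for the protein, the study reports overexpression in its Hnrnpk SAM MEFs. All 11 fibroblast markers were listed, with a summed level of 774856 to 813008 in Empty, 601415 to 606242 in SAM1 and 821677 to 842939 in SAM2. Against Empty, 3 were called higher and 8 lower in SAM1, where 37.3% and 36.9% of all genes were. In SAM2 it was 4 and 5, against 35.2% and 35.3%. Dcn had means of 11815, 2713 and 2538 and Pdgfra 9710, 6403 and 5534. Pdgfrb (6569, 12577 and 9513) and Fbn1 (4069, 6495 and 9886) went the other way. Of 8 epithelial markers 4 were listed, summing to 619 to 676, 4282 to 4480 and 3028 to 3181 in the same order, and Epcam, Krt18, Krt5 and Krt14 were not in the table used here. The SAM1 sum was mostly Cldn4 (mean 3691, against 366 in Empty and 211 in SAM2) and the SAM2 sum mostly Sprr1a (2824, against 242 in Empty), while Cdh1 had means of 33.9, 88.7 and 32.4. Of 7 endothelial markers 5 were listed, summing to 428 to 468, 4922 to 5343 and 907 to 977, while Cldn5 and Emcn were not listed. Kdr made most of that sum in the SAM lines, with means of 211, 4693 and 536. Vwf was higher in both lines too, at 117, 340 and 270, while Cdh5 had 77.6, 64.7 and 51.2 and Tek 35.6, 29.0 and 67.1. Pecam1 had 12.9 in Empty and 29.5 in SAM1, and was slightly below its Empty level in SAM2. Of 7 leukocyte markers 4 were listed, summing to 1487 to 1524, 2513 to 2673 and 1756 to 1775, while Ptprc, Adgre1 and Tyrobp were not. The 3 of 8 neural and glial markers listed summed to 1179 to 1423, 1382 to 1420 and 1161 to 1206. The part of these differences in the results below was not tested. In bulk RNA, more cells in a phase of the cycle and more RNA per cell cannot be told apart.

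**Figure D1:**
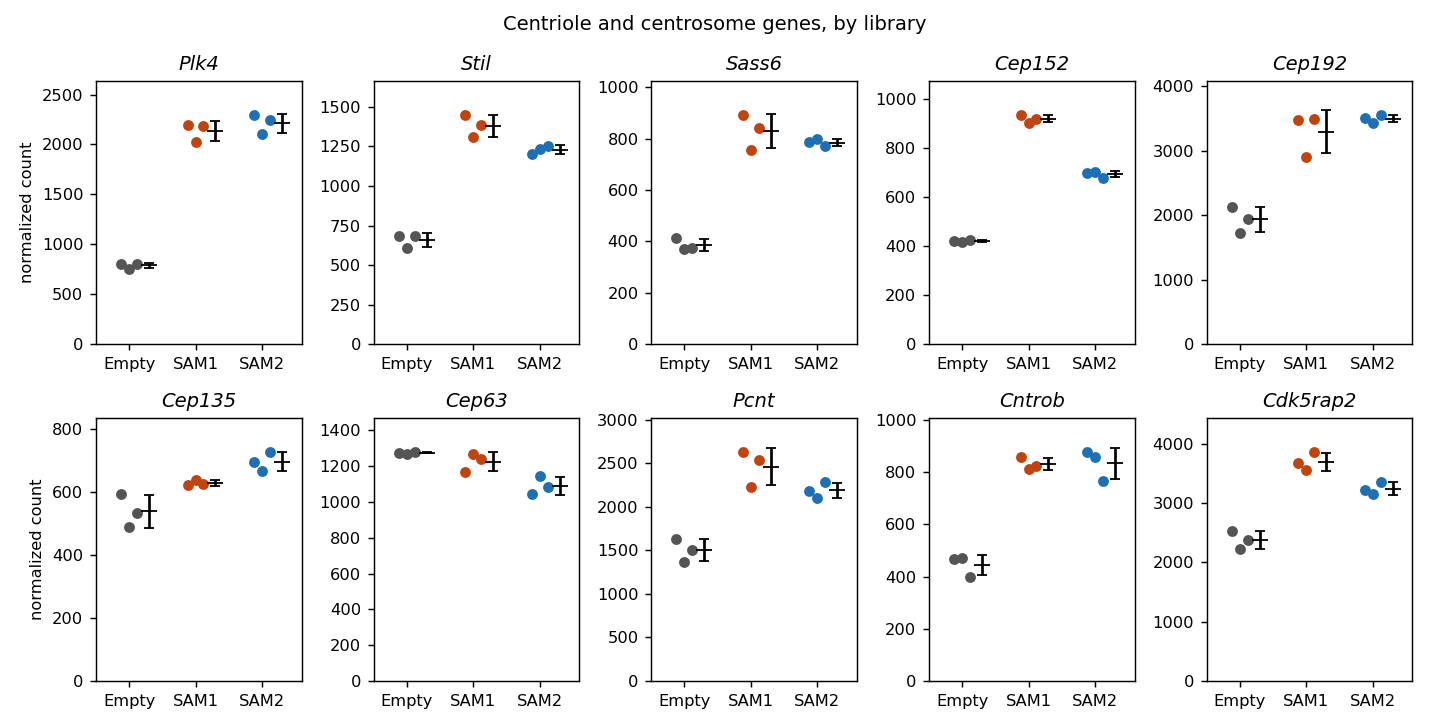
Normalized read counts of the 10 genes by library, 1 panel per gene with its own vertical axis from 0 (dots are the 9 libraries and the bars beside them give the group mean ± SD, n = 3). In 9 panels all SAM1 and SAM2 dots lie above the Empty dots, and in the Cep63 panel they lie below them.

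Plk4 encodes the kinase that starts centriole duplication. It lies on chromosome 3 (GRCm39, chr3:40754427-40772633, plus strand). Its normalized counts were 807, 756 and 803 in Empty, 2196, 2023 and 2183 in SAM1, and 2292, 2107 and 2241 in SAM2. The SAM lines overlapped each other and stood far above the control. The group means were 789 ± 28.1 (SD, n = 3), 2134 ± 96.2 and 2213 ± 95.5. The pooled log2 fold change was 1.46 (SE 0.0490, limma adjusted p = 3.61e-08), higher than that of 94.2% of all genes. Against Empty, it was 1.43 in SAM1 and 1.49 in SAM2, comparisons that share the same 3 control libraries. Mfsd8, a gene on the opposite strand, overlaps 1064 bases, or 30.6%, of the canonical Plk4 transcript. Whether the counting used strand is not given in the sources used here. Mfsd8 had 247 ± 16.0 normalized counts in Empty, 286 ± 37.4 in SAM1 and 266 ± 11.6 in SAM2, with a pooled log2 fold change of 0.16 (limma adjusted p = 0.188).

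The other 3 genes of this step encode the platform on the mother centriole that PLK4 binds. Cep192 (chr18:67933152-68018241, plus strand) had 2130, 1733 and 1947 normalized counts in Empty, 3474, 2911 and 3499 in SAM1, and 3504, 3437 and 3551 in SAM2. All 6 Hnrnpk_SAM libraries were above the control, and SAM1 replicate 2 stood below the other 5. Its pooled log2 fold change was 0.81 (SE 0.0794, limma adjusted p = 2.44e-05).

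Cep152 (chr2:125405008-125467091, minus strand) had 424, 418 and 424 in Empty, 935, 906 and 922 in SAM1, and 700.2, 704 and 680.1 in SAM2. The 3 groups did not overlap, with SAM1 highest and SAM2 between. Its pooled log2 fold change was 0.92, with an SE of 0.122 in the pooled fit, which treats both lines as 1 group (limma adjusted p = 0.000177). Cep63 (chr9:102461787-102503733, minus strand), whose protein binds CEP152, had 1276, 1271 and 1279 in Empty, 1166, 1269.9 and 1243 in SAM1, and 1043, 1144 and 1087 in SAM2. All 6 Hnrnpk_SAM libraries lay below the control, a separation that 27.2% of all genes showed, but 1 SAM1 library came close to it. The pooled log2 fold change of -0.14 missed the threshold (SE 0.0657, limma adjusted p = 0.0969). Fitted as the mean of the lines in the fit with 3 groups, the same change had an adjusted p of 0.00552. It was -0.058 in SAM1 (adjusted p = 0.269) and -0.23 in SAM2 (adjusted p = 0.000612).

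Of the cartwheel genes, Stil (chr4:114857354-114900952, plus strand) had 681, 609 and 685 normalized counts in Empty, 1447, 1307 and 1388 in SAM1, and 1199.7, 1234 and 1255 in SAM2. The 3 groups were separate, SAM1 above SAM2 above Empty. The pooled log2 fold change was 0.99 (SE 0.0713, limma adjusted p = 3.62e-06). Sass6 (chr3:116388568-116424653, plus strand) had 412, 372 and 374 in Empty, 890.3, 757 and 839.9 in SAM1, and 785, 796 and 770.1 in SAM2. The SAM lines overlapped, and each was clear of Empty. Sass6 rose by 1.06 on the log2 scale (SE 0.0667, limma adjusted p = 1.48e-06). Trmt13, on the opposite strand, overlaps 452 bases, or 10.4%, of the canonical Sass6 transcript, and its pooled log2 fold change was 0.066 (limma adjusted p = 0.535).

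Cep135 (chr5:76736531-76794313, plus strand) encodes a protein that ties the cartwheel to the microtubule wall. It had 595, 490.5 and 533 in Empty, 622, 639.9 and 627 in SAM1, and 697, 668 and 727 in SAM2. All groups were separate, but the gap between the highest Empty and the lowest SAM1 library was small. The pooled log2 fold change of 0.30 was the smallest of the 9 called (SE 0.0772, limma adjusted p = 0.00878). Cntrob (chr11:69190313-69214731, minus strand) encodes centrobin, a protein of the daughter centriole. It had 465, 469.5 and 399.5 in Empty, 858, 811 and 825 in SAM1, and 877, 858 and 765 in SAM2. Its SAM lines overlapped, above the control. The rise was 0.90 on the log2 scale (SE 0.0692, limma adjusted p = 5.08e-06).

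The last members build the PCM. Pcnt (chr10:76186841-76278706, minus strand), the gene of the scaffold pericentrin, had 1629, 1372 and 1506 in Empty, 2629, 2223 and 2532 in SAM1, and 2181, 2107 and 2283 in SAM2. Both lines were above Empty, and SAM1 replicate 2 lay within the range of SAM2. Pcnt rose by 0.63 on the log2 scale (SE 0.0825, limma adjusted p = 0.000164). Cdk5rap2 (chr4:70135093-70328911, minus strand), whose protein binds gamma-tubulin complexes and pericentrin, had 2536, 2223 and 2370.3 in Empty, 3669, 3563 and 3859 in SAM1, and 3218, 3144 and 3361 in SAM2. Here the 3 groups were separate again, with SAM1 highest. The pooled log2 fold change was 0.54 (SE 0.0725, limma adjusted p = 0.000181).

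**Figure D2:**
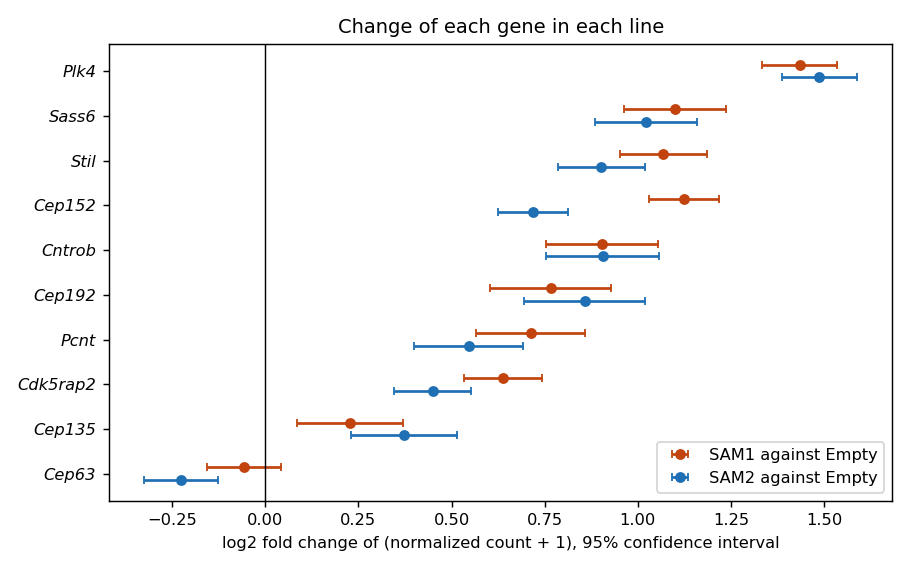
Log2 fold change of (normalized count + 1) of each of the 10 genes in SAM1 and in SAM2 against Empty, with 95% confidence intervals from limma. Plk4 lies highest at 1.43 and 1.49, Cep63 lowest at -0.058 and -0.23, and the intervals of the lines are clear of each other in Cep152.

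Each line was then set against the same Empty libraries. In SAM1, 9 members were called higher and 0 lower, where 37.3% of all genes passed in the first direction and 36.9% in the second. The 3 SAM1 libraries lay on one side of the 3 Empty libraries in all 10 members, 9 above and 1 below, as they did in 37.3% (above) and 37.1% (below) of all genes. In SAM2, the same 9 were called higher and Cep63 lower, against 35.2% and 35.3% of all genes. The SAM2 libraries were likewise separate from Empty in all 10 members, 9 above and 1 below, against 36.7% and 36.8% of all genes. The difference between the lines was tested directly. In SAM2 against SAM1, 0 members were called higher and 5 lower, against 31.1% and 29.2% of all genes. The SAM2 libraries all lay above the SAM1 libraries in 1 member and all below in 4, against 34.8% and 33.4% of all genes.

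The widest gap between the lines was in Cep152, which was 0.41 lower in SAM2 on the log2 scale (SAM2 minus SAM1 -0.41, SE 0.0434, limma adjusted p = 3.75e-06). Against Empty, Cep152 stood at 1.12 in SAM1 and 0.72 in SAM2. Cdk5rap2 was lower in SAM2 at -0.19 (SE 0.0480, limma adjusted p = 0.00411), Cep63 at -0.17 (SE 0.0456, limma adjusted p = 0.00634) and Stil at -0.17 (SE 0.0539, limma adjusted p = 0.0175). Pcnt was lower at -0.17 as well, with an adjusted p of 0.0496 at the edge of the threshold and libraries that overlapped between the lines. That call was lost under 3 other settings (adjusted p = 0.0529 to 0.0914) and without any 1 of 6 libraries (adjusted p = 0.0516 to 0.196). The call of Stil was lost without SAM1 replicate 1 (adjusted p = 0.0822) or SAM2 replicate 1 (adjusted p = 0.0679), and DESeq2 called only Cep152 and Cdk5rap2.

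The other 5 members were not called different between the lines. For Plk4 the difference was 0.052 with a 95% confidence interval from -0.0485 to 0.153, for Cntrob 0.0016 from -0.149 to 0.153, and for Sass6 -0.078 from -0.216 to 0.0601. For Cep192 it was 0.091, from -0.0705 to 0.253. Of these 5, Cep135 alone had libraries that did not overlap between the lines. All 3 SAM2 libraries lay above all 3 SAM1 libraries at 0.15 (interval 0.00435 to 0.289), with a limma adjusted p of 0.0699. These results do not show that the lines were alike in the 5 genes.

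The promoters of 5 members are shown because the results turn on these genes: Plk4, Stil, Sass6 and Cep152 rose most among those with an entry, and Cep63 did not rise. Each sequence holds the 250 bases before the transcription start in RefSeq's annotation of build GRCm38.p6, an older build than the gene positions above. Capitals mark 4 kinds of motif, searched on both strands: the cell-cycle genes homology region TTTGAA, its variant TTTAAA (which reads the same on both strands), the E2F motif as TTTCGCGC or TTTGGCGC, and CCAAT, the box bound by NF-Y (ATTGG on the other strand). None of the motifs overlap each other in these windows.
Plk4, chr3:40799701-40799950, strand +: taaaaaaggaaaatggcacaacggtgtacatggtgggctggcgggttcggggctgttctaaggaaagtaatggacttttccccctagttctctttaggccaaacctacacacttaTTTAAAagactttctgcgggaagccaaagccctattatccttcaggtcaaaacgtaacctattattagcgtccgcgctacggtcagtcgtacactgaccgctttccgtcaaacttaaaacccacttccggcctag
Stil, chr4:114999868-115000117, strand +: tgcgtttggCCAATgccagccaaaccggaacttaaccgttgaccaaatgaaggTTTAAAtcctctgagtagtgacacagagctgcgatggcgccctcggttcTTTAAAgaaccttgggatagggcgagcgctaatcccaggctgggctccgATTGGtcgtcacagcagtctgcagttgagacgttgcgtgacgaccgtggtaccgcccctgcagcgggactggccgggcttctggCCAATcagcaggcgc
Sass6, chr3:116594708-116594957, strand +: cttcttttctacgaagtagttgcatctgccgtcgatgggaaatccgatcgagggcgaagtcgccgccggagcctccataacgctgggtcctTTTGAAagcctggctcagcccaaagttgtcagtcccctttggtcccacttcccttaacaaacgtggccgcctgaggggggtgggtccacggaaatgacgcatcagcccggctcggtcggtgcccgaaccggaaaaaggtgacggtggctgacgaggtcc
Cep152, chr2:125625114-125625363, strand -: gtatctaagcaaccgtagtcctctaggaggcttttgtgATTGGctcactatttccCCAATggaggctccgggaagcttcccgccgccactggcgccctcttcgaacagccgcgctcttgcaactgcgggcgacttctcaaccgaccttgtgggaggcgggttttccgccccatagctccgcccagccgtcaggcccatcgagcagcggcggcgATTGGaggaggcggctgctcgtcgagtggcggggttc
Cep63, chr9:102626125-102626374, strand -: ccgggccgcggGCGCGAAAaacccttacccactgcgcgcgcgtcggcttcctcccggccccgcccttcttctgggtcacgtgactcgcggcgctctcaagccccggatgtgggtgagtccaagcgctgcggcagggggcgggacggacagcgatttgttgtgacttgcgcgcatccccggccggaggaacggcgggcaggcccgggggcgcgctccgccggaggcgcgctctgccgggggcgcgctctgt

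Over windows that also include the 50 bases after the start, 8 of the 10 members were searched, and Cep192 and Cntrob had no entry. TTTGAA was found in 2 members, at -159 in Sass6 and at 27 in Cdk5rap2, against 17.9% of all 32851 promoters and 12.4% of those of genes in the expression table. TTTAAA was found in 2, once in Plk4 at -135 and in Stil at -197 and -148, against 13.2% and 9.41%. The E2F motif was found in 1, Cep63, at -239, against 0.813% and 1.40%. CCAAT was found in 4, with 3 copies each in Stil and Cep152 and 1 each in Cep135 and Pcnt, against 37.4% and 37.8%. The matches are letters in these windows and are no evidence of binding.

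Ratios between partners within a library show which members moved unequally. The log2 ratio of Plk4 to Cep152, its receptor on the mother centriole, was 0.90 ± 0.0408 in Empty, 1.21 ± 0.0453 in SAM1 and 1.67 ± 0.0772 in SAM2, and the 3 groups did not overlap. The ratio of Plk4 to Cep192, the other receptor, was -1.29 ± 0.102, -0.62 ± 0.0850 and -0.66 ± 0.0468, so the lines overlapped there and both stood above Empty. The ratio of Plk4 to Stil was 0.26 ± 0.0439, 0.63 ± 0.0254 and 0.85 ± 0.0816. Stil over Sass6 was 0.77 ± 0.0891, 0.74 ± 0.0450 and 0.65 ± 0.0492. Empty overlapped SAM1, while the SAM2 libraries, at most 0.704, lay just below the lowest Empty library at 0.711. Cep152 over its binding partner Cep63 went from -1.59 ± 0.00718 in Empty to -0.41 ± 0.0864 in SAM1 and -0.65 ± 0.0664 in SAM2. Pcnt over Cdk5rap2 was -0.66 ± 0.0296, -0.59 ± 0.101 and -0.57 ± 0.0107. Here SAM1 overlapped Empty, while the SAM2 libraries, at least -0.578, lay above the highest Empty library at -0.639. Each ratio is given as a mean ± SD over 3 libraries, without a test.

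To compare levels between genes, normalized counts were divided by the length in kilobases of each gene's canonical transcript in GENCODE vM39. In Empty, Cep63 was highest at 266 ± 0.859 normalized counts per kb, followed by Cep192 at 239 ± 24.5, Plk4 at 227 ± 8.09 and Cdk5rap2 at 197 ± 13.0. Cep192 and Plk4 overlapped in that order, whereas Cep63 was clear of Cep192. Pcnt followed at 155 ± 13.3, then Stil at 124 ± 8.05, Cntrob at 112 ± 9.85, Cep135 at 97.4 ± 9.53 and Sass6 at 89.1 ± 5.26, and each from Stil to Cep135 overlapped the next. Cep152 was lowest at 72.4 ± 0.570. In SAM1 the order began with Plk4 at 613 ± 27.6, Cep192 at 406 ± 40.9 and Cdk5rap2 at 306 ± 12.4, all separate, and ended with Cep135 at 114 ± 1.69. In SAM2 Plk4 was again first at 636 ± 27.5, Cep192 next at 431 ± 7.04, and Cep135 at 126 ± 5.40 and Cep152 at 119 ± 2.19 overlapped at the bottom. Cep63 stood between Stil and Pcnt in both SAM lines, at 256 ± 11.3 and 227 ± 10.5 normalized counts per kb, and overlapped both.

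Genes of dividing cells were higher in the Hnrnpk_SAM libraries as well, and those values stand beside the members' own. In a reference list of 22 proliferation genes, 21 were called higher and 0 lower in the pooled comparison, against 26.8% and 27% of all genes. Their median log2 fold change was 1.0. Mki67, which marks cycling cells, had a log2 fold change of 1.45 (SE 0.0758, limma adjusted p = 4.64e-07). Foxm1, a transcription factor of G2 and mitosis genes, had 1.57 (SE 0.0834, limma adjusted p = 5.25e-07), and Cdk1, the mitotic kinase, 1.02 (SE 0.0692, limma adjusted p = 2.41e-06). E2f1, which drives entry into S phase, had 0.54 pooled (limma adjusted p = 0.0379), with 0.87 in SAM1 and 0.21 in SAM2. In SAM2 against SAM1, 16 of the 22 were called lower and 3 higher, against 29.2% and 31.1% of all genes, with a median of -0.22.

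The members were also expressed relative to the mean log2 level of those 22 genes in the same library, with the Empty mean set to 0. This measure was chosen after the values had been seen and carries no test. On it, Plk4 alone stood above Empty in all 6 Hnrnpk_SAM libraries, by a mean of 0.36 in SAM1 and 0.64 in SAM2. Stil (-0.0093 and 0.052), Sass6 (0.022 and 0.17), Cep192 (-0.31 and 0.0070) and Cntrob (-0.17 and 0.055) overlapped the Empty libraries in at least 1 line. Cep152 lay above Empty in the SAM1 libraries, at 0.047, and below it in the SAM2 libraries, at -0.13. Cep135 (-0.85 and -0.48), Cep63 (-1.13 and -1.08), Pcnt (-0.37 and -0.30) and Cdk5rap2 (-0.44 and -0.40) lay below Empty in all 6. The part of proliferation in the members' changes was not tested.

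**Figure D3:**
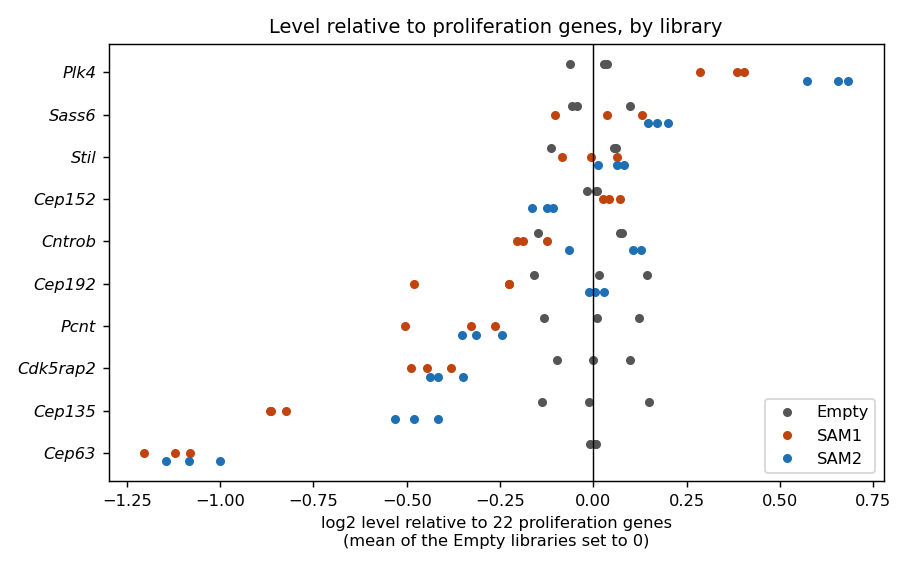
Log2 level of each of the 10 genes relative to the mean log2 level of 22 proliferation genes in the same library, with the mean of the Empty libraries set to 0. Points are libraries. Plk4 lies above 0 in all 6 Hnrnpk_SAM libraries, and Cep135, Cep63, Pcnt and Cdk5rap2 lie below the Empty range in all 6.

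Genes near each member on its chromosome were compared, since a change over a whole segment would include its neighbours. In the pooled comparison all 10 members lay above the median log2 fold change of the listed genes within 2 Mb of their start, in GENCODE vM39 positions. Plk4 had 10 such neighbours with a median of 0.56, and 7 of them were above 0, while 2 were at or above Plk4 itself. The 761 other genes of chromosome 3 had a median of 0.078. Cep152 had 32 neighbours with a median of 0.30, on a chromosome with a median of 0.21. Around Stil (34 genes, 0.016), Sass6 (19, -0.027), Cep192 (24, -0.046), Cep135 (21, -0.039) and Pcnt (48, -0.066) the medians were near 0. Cntrob had 98 neighbours with a median of 0.33, among them Trp53, whose start is 279 kb away. Of these neighbours 84 were above 0, while the other genes of chromosome 11 had a median of 0.047. Cep63 had 20 neighbours with a median of -0.22, below its own -0.14. Around Cdk5rap2 only 4 listed genes fell in the window, with a median of -0.29 pooled, 0.14 in SAM1 and -0.80 in SAM2. Whether segments of these chromosomes differ in copy number between the lines was not tested.

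**Figure D4:**
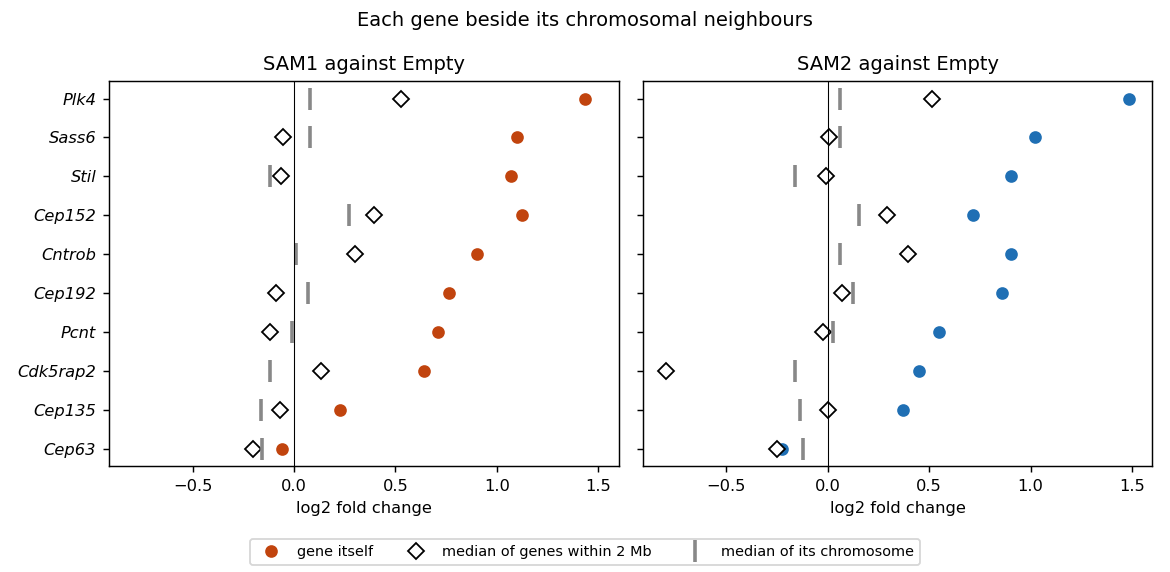
Log2 fold change of each of the 10 genes (filled circles), the median of the listed genes within 2 Mb (open diamonds) and the median of its chromosome (grey bars), for SAM1 and for SAM2 against Empty. Every circle lies above its diamond, with Plk4 at 1.43 and 1.49 and its neighbours' medians at 0.53 and 0.51, and the diamond of Cdk5rap2 rests on 4 genes.

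The same fit covered a wider list of 114 centrosome genes beside the members, out of 115 on the list (Ccdc13 was not in the table used here). In the pooled comparison 56 were called higher and 18 lower, or 49.1% and 15.8%, against 26.8% and 27% of all genes. Another 40 were not called. Their median log2 fold change was 0.19. Set against Empty, SAM1 had 66 called higher and 24 lower, or 57.9% and 21.1%, against 37.3% and 36.9% of all genes. SAM2 had 65 and 25, or 57% and 21.9%, against 35.2% and 35.3%. In SAM2 against SAM1, 36 were higher and 31 lower. Those were 31.6% and 27.2%, near the 31.1% and 29.2% of all genes. A few genes stand in more than 1 of the 6 role lists below, and the genes named are the 3 of each list with the widest change among those whose libraries did not overlap. Over these role lists the pooled shares ran from 36.4% to 60% called higher and from 5.56% to 20% called lower.

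Of 38 genes of centriole assembly and length, 18 were called higher and 7 lower in the pooled comparison, with a median of 0.19. Ccnf, cyclin F, which targets the centriole protein CP110 for degradation, had 601 ± 35.3 normalized counts in Empty, 2367 ± 20.4 in SAM1 and 2416 ± 58.4 in SAM2, for a log2 fold change of 1.99 (limma adjusted p = 5.56e-09). Cenpj, which elongates the new centriole, went from 344 ± 31.3 to 867 ± 15.6 and 849 ± 33.0, a log2 fold change of 1.32 (adjusted p = 2.55e-07). Cenpj had no single match by name in GENCODE vM39, so it was not compared with the genes of its chromosome. Ppp1r35, another gene of centriole elongation, went the other way, from 1033 ± 82.1 to 496 ± 53.2 and 554 ± 1.07, and fell by 0.98 on the log2 scale (adjusted p = 1.34e-05). Sfi1, singled out after its values were seen, differed in direction between the lines, at 2.42 in SAM1 and -0.41 in SAM2 against Empty, and the line difference was -2.83 (limma adjusted p = 9.75e-14). Sfi1 has partial copies elsewhere in the mouse genome, so its counts are uncertain.

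Of 18 appendage genes, which equip the mother centriole to anchor microtubules and cilia, 9 were called higher and 1 lower, with a median of 0.19. Ccdc68 had a log2 fold change of 2.07 from a very low level of 3.20 ± 0.940 normalized counts in Empty to 16.5 ± 1.95 and 16.5 ± 3.02 (limma adjusted p = 5.81e-05). Cep128 rose by 1.22 (adjusted p = 4.81e-05) and Cntrl, centriolin, by 1.05 (adjusted p = 2.26e-06). Cep128, like Cep152, was lower in SAM2 than in SAM1, at 730 ± 19.5 against 982 ± 69.7 (SAM2 minus SAM1 -0.42, limma adjusted p = 2.46e-05).

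The list of PCM and gamma-tubulin genes had 14 of 28 called higher and 5 lower, with a median of 0.20. Haus4, a subunit of the augmin complex that branches microtubules, had a log2 fold change of 1.58 (limma adjusted p = 9.33e-08). The other listed genes of its chromosome 14 had a median of 0.55, and those within 2 Mb of Haus4 0.64. Aspm, a spindle pole protein, had 1.57 (adjusted p = 3.36e-06), and Cep55, which acts in the last cut between daughter cells, 1.09 (adjusted p = 7.97e-07). Among 14 satellite genes, whose proteins form granules around the centrosome, 6 were called higher and 2 lower, with a median of 0.19. Their widest changes were in Dzip1 at 1.01 (adjusted p = 0.00111), in Ccdc18 at 0.89 (adjusted p = 0.000161) and in Ccdc66 at 0.62 (adjusted p = 8.38e-05). Dzip1, also on chromosome 14, stood at 0.70 in SAM1 and 1.32 in SAM2, a line difference of 0.61 (adjusted p = 1.56e-07). The genes within 2 Mb of Dzip1 had a pooled median of 0.71. Ccdc66 is on chromosome 14 too, whose median of 0.55 was close to it, although the genes within 2 Mb of Ccdc66 had a median of 0.13.

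Centrosome cohesion and separation had the highest median of the role lists, 0.87, with 6 of 10 called higher and 2 lower. Espl1, separase, which licenses centrioles for copying by disengaging them, had 1059 ± 48.7 normalized counts in Empty, 3420 ± 179 in SAM1 and 3556 ± 65.6 in SAM2, a log2 fold change of 1.72 (limma adjusted p = 1.45e-08). Kif11, the motor that pushes centrosomes apart, had 1.42 (adjusted p = 1.98e-07). Stk3, a Hippo pathway kinase that acts in centrosome disjunction, fell by 1.51 on the log2 scale, from 10570 to 3276 and 4212 (adjusted p = 3.15e-06).

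**Figure D5:**
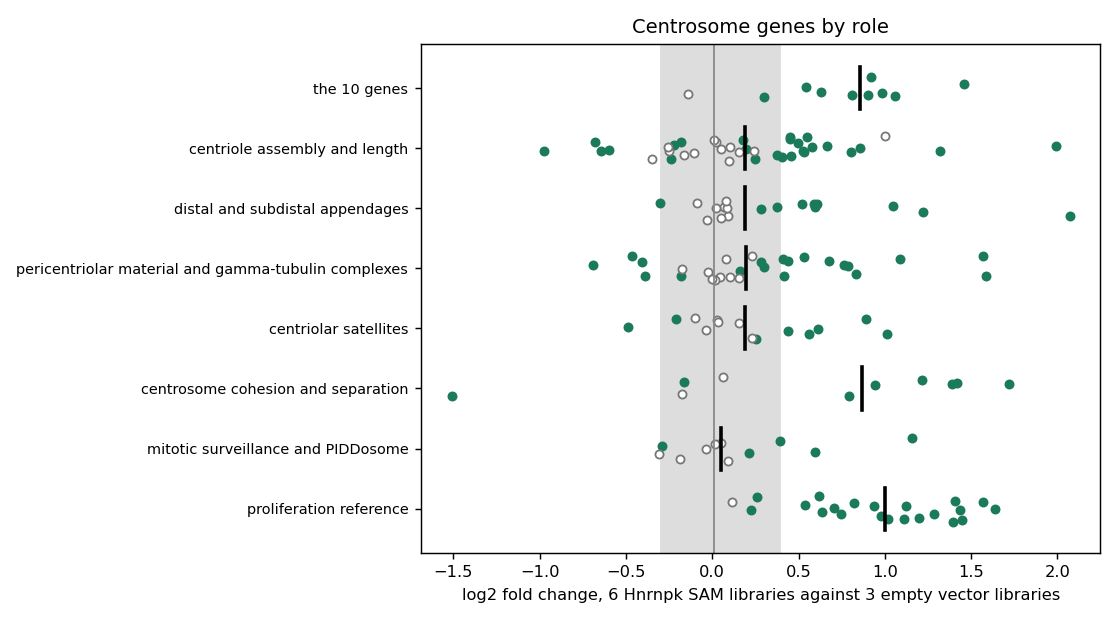
Pooled log2 fold change of each gene of each list, filled where the gene was called by limma and open where not, with the list median as a black bar, the median of all genes as a grey line and the middle 50% of all genes as a grey band. The 10 genes have a median of 0.86, the proliferation list 1.0, and the other centrosome lists between 0.049 and 0.87.

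The last role list holds the genes that stop the cell cycle when centrosomes are lost or a mitosis runs long, and those of the PIDDosome, the complex that reads extra centrosomes. Among these 11, 4 passed as higher and 1 as lower, or 36.4% and 9.09%, with a median of 0.049. Over all genes the shares were 26.8% and 27%. Trp53, which encodes p53, had 1084 ± 27.8 normalized counts in Empty, 2473 ± 28.0 in SAM1 and 2364 ± 36.9 in SAM2. Its log2 fold change was 1.16 (SE 0.0387, limma adjusted p = 3.61e-08), and the window around it had a median of 0.32. Cdkn1a, the p53 target that encodes the cycle inhibitor p21, went the other way at -0.29 (SE 0.0576, adjusted p = 0.00209), from 1567 ± 78.3 to 1329 ± 53.8 and 1233 ± 53.2.

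Trp53bp1 and Usp28, which act together upstream of p53, did not move alike. Trp53bp1 had a log2 fold change of 0.21 (limma adjusted p = 0.0108). Usp28 stood at -0.31 pooled (adjusted p = 0.0506), with -0.50 in SAM1 and -0.11 in SAM2 (adjusted p = 0.0218), and the lines differed by 0.39 (adjusted p = 1.87e-06). Of the PIDDosome, Pidd1 stood at 0.39 pooled with an adjusted p of 0.0493 and overlapping libraries. Against Empty, Pidd1 was at 0.59 in SAM1 (adjusted p = 0.000172) and 0.19 in SAM2 (adjusted p = 0.109). Its SAM2 minus SAM1 difference was -0.39 (adjusted p = 0.00504). Cradd stood at 0.094 (adjusted p = 0.452) and the caspase gene Casp2 at 0.049 (adjusted p = 0.473). Ankrd26, which holds the PIDDosome at the centriole's appendages, rose by 0.59 (adjusted p = 0.000153).

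The genes whose profile over the 9 libraries was most like that of Plk4 were found by the root mean square distance between log2 values, each centred on its own Empty mean. Plekha2, second in that order at a distance of 0.0638, had 971 ± 28.7 normalized counts in Empty, 2594 ± 76.9 in SAM1 and 2862 ± 117 in SAM2. Bmp1, the third at 0.0652, had 5408 ± 171, 15283 ± 207 and 15535 ± 139. Bmp1 encodes a protease that matures collagen, and lies on chromosome 14 among neighbours with a median of 0.81.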

How the data were processed

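PolyA-selected RNA from 9 MEF libraries had been sequenced as paired 43-base reads with a directional kit. The authors aligned them with TopHat2 and Bowtie to GRCm39, allowing 3 mismatches and 20 multihits, counted reads per gene with HTSeq on GENCODE vM29, and deposited a signal per gene and library, the count divided by DESeq2's size factor. Genes above 10 in at least 30% of libraries were listed, which all 15184 were. The submitters' processing notes name FastQC 0.11.0.

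Groups came from the sample titles. In R 4.3.3, limma 3.58.1 (empirical Bayes with a trend) was fitted to log2(value + 1) over all genes, in 2 groups for the pooled comparison and in 3 groups for the lines. A fold change on this scale understates that of low genes. P-values were adjusted by Benjamini-Hochberg. The steps were tested on simulated data in which far fewer genes changed than here and the SAM lines did not differ. That test therefore does not measure error rates in these data. Dividing by the smallest step gave whole reads for 100% of values in 8 libraries, and these were tested with edgeR 4.0.16 and DESeq2 1.42.0. SAM2 replicate 1 was left out of those 2 fits because its reads could not be recovered. Other alternatives were a pseudocount of 10, a mean above 100, quantile and upper quartile scaling, a replicate block, the mean of the lines, and each library left out. The 7 pairs of libraries of a group with recovered reads differed by more than counting noise, with a chi-square per gene of 1.45 to 13.2, and the 2 pairs with SAM2 replicate 1 were not compared.

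Gene names matched GENCODE vM39 once for 14791 genes, more than once for 68 and not at all for 325. Promoters came from RefSeq. Sequence from chromosome 18 and proteins were not used here. The 10 genes and the lists were chosen with earlier results of these data known. Named genes were all members, the 3 genes per role list with the largest called and separate change, the 7 named p53 and PIDDosome genes, 4 proliferation genes, Hnrnpk, and the 3 genes closest in profile to Plk4, of which the closest is not reported here. Sfi1, Mfsd8 and Trmt13 were added after their values were seen.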

Additional observations from a re-analysis of the deposited data

Results flagged for a closer look

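Among the 6 Hnrnpk_SAM libraries, Cep192 had 1 library far from the others: SAM1 replicate 2 at 2911 normalized counts, where the other 5 ran from 3437 to 3551. The gap divided by the range was 0.822, above Dixon's 95% critical value for 6 libraries, which chance passes in about 1 group of 20. That rate is for 1 sample, whereas these libraries come from 2 lines, and Cep192 is 1 of 10 members. The departure of SAM1 replicate 2 was not confined to Cep192. Over all genes its chi-square per gene was 7.87 against SAM1 replicate 1 and 9.34 against replicate 3. Between SAM1 replicates 1 and 3 it was 1.45, while a pair of Empty libraries reached 13.2. Without SAM1 replicate 2 the log2 fold change of Cep192 in SAM1 against Empty was 0.85, against 0.77 with it.

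For 5 members the change from Empty differed between the lines by the test of SAM2 against SAM1: Cep152 at -0.41, Cdk5rap2 at -0.19, Cep63 at -0.17, Stil at -0.17 and Pcnt at -0.17.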

How the results depend on the processing

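Under every alternative run, 9 members were called higher than Empty in the pooled comparison, in SAM1 and in SAM2. Cep63 was called lower in SAM2 under each of them too. In the pooled comparison its value kept its direction and was called with the mean of the lines (adjusted p = 0.00552) and without SAM1 replicate 2 (adjusted p = 0.0421).

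The count of members called between the lines, 5 in the main fit, was 2 with DESeq2, and from 3 to 6 with 1 library left out, with 3 without SAM1 replicate 1 and 3 without SAM2 replicate 1. With DESeq2 the calls of Stil (adjusted p = 0.0736), Cep63 (0.0756) and Pcnt (0.0914) were lost. Stil also missed the threshold without SAM1 replicate 1 (0.0822) and without SAM2 replicate 1 (0.0679), and Pcnt missed it with the mean above 100 (0.0529), with edgeR (0.0784) and without Empty replicate 3 (0.0708), SAM1 replicate 1 (0.196) or 3 (0.134), or any SAM2 replicate (0.109, 0.156 and 0.0516). Cep135 became called without Empty replicate 1 (0.0267) or 2 (0.0326). The cause was not tested.

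Values near 0 changed sign. The line difference in Cntrob, 0.0016, was -0.030 with quantile normalization, -0.052 with upper quartile scaling, -0.038 with edgeR and -0.034 with DESeq2, and ran from -0.037 to 0.062 with 1 library left out. With upper quartile scaling, Plk4 between the lines was -0.0016 and Cep63 in SAM1 was 0.0018. That scaling changed the calls over all genes between the lines from 4722 higher and 4440 lower to 3841 and 5327.

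Same-numbered libraries of different groups correlated in their deviations at 0.00237 to 0.117, and 8 of 9 libraries correlated best with their own number, a hint from the data and not from the design. With the replicate block, 9 members stayed called in the pooled comparison and the wider list had 67 called, against 74 without it. Between the lines 6 members were called, Cep135 being added (adjusted p = 0.0428).

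With 3 libraries per group, small differences between the lines are at the limit of what these libraries resolve.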

Other observations

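In Plk4, Cep192, Pcnt and Cdk5rap2, the replicate 2 library was the lowest of its group in all 3 groups. This held for 13.0% of all genes, against 4.20% for replicate 1 and 3.48% for replicate 3. The pattern was seen after the values were examined, and its cause was not tested.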
